A study of Mus musculus with 16 samples.

Results

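The genes described here are 10 genes that fold, check or signal for proteins in the endoplasmic reticulum (ER), namely Hspa5, Hsp90b1, Calr, Canx, Pdia4, Pdia6, Hyou1, Dnajb9, Xbp1 and Herpud1. They were chosen by name, and each gene stood with the annotated transcript that had the largest count summed over all 16 libraries, which made 10 of the 22392 gene symbols in the table. The data were Ribo-seq, which counts the mRNA fragments that ribosomes protect from nuclease (footprints), and RNA-seq of the same lysates. They came from Hepa1-6 cells, a mouse hepatoma line, in 4 lines with 2 replicates each. WT cells were unedited, and in KO1, KO2 and KO3 exon 5 of Eef1d was deleted with Cas9 and a pair of guides. KO1 and KO2 had the same pair, and KO3 shared their guide in intron 5 and had another in intron 4. Eef1d encodes a subunit of eEF1B, the complex that reloads the elongation factor eEF1A with GTP, and the study compared the clones with WT cells to ask whether translation differs without the isoforms that carry exon 5. All lines grew in the same medium with serum and without a stress agent. Each KO line is a single clone, so an effect of the deletion and a property of the clone cannot be told apart. The methods call the 2 replicates of a line biological, but they are of 1 clone and the labels do not name separate cultures, so p-values measure only the spread between these samples, which may be technical. The sources differ on RNA-seq, with polyA RNA as the labelled molecule and depletion of rRNA in the extraction protocol, and RNA levels and the ratio of footprints to RNA may depend on which was used.

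Proteins that enter the ER are folded by lumenal chaperones, by lectins that hold glycoproteins and by enzymes that form disulfide bonds. When unfolded proteins build up, the sensors IRE1, PERK and ATF6 start the unfolded protein response (UPR), which raises the mRNA of chaperones through the transcription factors XBP1 and ATF6 and slows translation through PERK. Hepatocytes secrete large amounts of protein, and their ER folding machinery is abundant.

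The promoters of these genes are shown because the ER stress response element is the textbook site through which the UPR raises chaperone mRNA. In the RefSeq promoter windows of GRCm38.p6, from 250 bases before to 50 bases after the start site, 3 motifs were searched on both strands. They were ERSE (CCAAT and CCACG with 9 bases between them), ERSE-II (ATTGG and CCACG with 1 base between them) and UPRE (TGACGTGG), which overlap in that CGTGG of UPRE is the reverse complement of CCACG. A window was found for 9 of the 10 genes and none was used for Hyou1. ERSE occurred in 0.119% of all 32851 windows, ERSE-II in 0.0365% and UPRE in 0.676%. Among the 9 genes, 5 had an ERSE, 1 had an ERSE-II and 0 had a UPRE. In the sequences below, 5′ to 3′, capitals mark the match and 5 bases are given on each side.
Hspa5 ERSE: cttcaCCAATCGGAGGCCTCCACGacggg
Calr ERSE: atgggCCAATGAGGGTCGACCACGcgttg
Hsp90b1 ERSE, far copy: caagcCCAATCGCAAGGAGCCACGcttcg
Hsp90b1 ERSE, near copy: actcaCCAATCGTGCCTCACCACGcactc
Canx ERSE: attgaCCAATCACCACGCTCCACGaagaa
Pdia6 ERSE: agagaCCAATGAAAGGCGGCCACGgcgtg
Herpud1 ERSE-II: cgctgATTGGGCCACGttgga

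Chromosome positions in this paragraph are those of all bases printed, with the 5 on each side of the match included. The Hspa5 match lies 65 to 47 bases before the start site (chr2:34772020-34772048, plus strand). It is inside the GENCODE gene given below, which begins before the RefSeq start site. The Pdia6 match lies 98 to 80 bases before the start site (chr12:17266486-17266514, plus strand). The Canx match lies 145 to 127 bases before the start site (chr11:50325795-50325823, minus strand), and the Herpud1 match 52 to 42 bases before it (chr8:94386372-94386392, plus strand). The Calr match is on the strand opposite to the gene, 162 to 144 bases before the start site (chr8:84847070-84847098, plus strand). Hsp90b1 has a far copy 212 to 194 bases before the start site (chr10:86705633-86705661, minus strand) and a near copy on the opposite strand 107 to 89 bases before it (chr10:86705528-86705556, plus strand). No match was found in the windows of Pdia4, Dnajb9 and Xbp1, which says only that these letters are not there. A match is a description of sequence, and use of the site was not measured.

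Xbp1 mRNA is the substrate of the IRE1 sensor, which cuts out a short stretch of its coding sequence and so joins it to another reading frame that encodes the active factor. RefSeq places this stretch at chr11:5524278-5524303 of GRCm38.p6 (plus strand, coding exon of Xbp1). Its 26 bases are shown in capitals with 20 bases on each side because Xbp1 counts below rest on the 2 frames. The first capital and the base after the last capital are both G. A stretch that starts after the former and ends with the latter leaves the same joined sequence, so the capitals do not fix the cut positions.
Xbp1 IRE1 site: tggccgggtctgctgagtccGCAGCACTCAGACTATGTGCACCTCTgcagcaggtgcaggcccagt

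RNA-seq libraries held 10493030 to 12946819 counts over the transcripts that stood for genes, and Ribo-seq libraries 1138943 to 4886753, with both extremes in KO1 (replicate 2 lowest, replicate 1 highest). Levels are given as CPM, a gene's counts in each 1000000 counts of a library after scaling within each assay. As a check of the deletion, the count on the Eef1d transcript with exon 5 was 115.99% to 116.2% of that on the transcript without it, with which it shares most reads, in WT RNA-seq and 89.79% to 92.58% in the clones. Of 12 hepatocyte markers, 7 reached 1 CPM in every RNA-seq library, with Alb and Afp the highest, while Ttr, Apoa1, Apoh, Ahsg and Serpina1a were at or near 0. Their summed level was 2333 to 2512 CPM in WT cells, 926.9 to 928.4 in KO1, 1781 to 1887 in KO2 and 3515 to 3688 in KO3, so the clones differed in hepatocyte genes beyond the spread of replicates. The 11 markers of other cell types summed to 11.46 to 20.07 CPM in every line. The part of these differences in the results below was not tested.

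In WT cells most of the 10 genes were among the more abundant mRNAs and all had a translation efficiency (TE) whose mean was above that of the median gene. TE is the ratio of footprint CPM to RNA-seq CPM of 1 lysate, given as log2, and it was ranked over 9634 genes with at least 10 counts in each WT library. The median gene had a TE of -0.15. Hspa5, the ER Hsp70 chaperone BiP, had TE values of 1.09 and 1.10 in the 2 WT lysates, at percentile 96.7 of all genes. Hsp90b1, Pdia6 and Calr followed with means of 0.68 ± 0.023, 0.65 ± 0.081 and 0.52 ± 0.082 (SD, n = 2), at percentiles 89.97, 88.98 and 84.6. Their values were thus in the upper part of the distribution in both lysates. Pdia4 had 0.46 ± 0.171, Herpud1 0.33 ± 0.131, Dnajb9 0.22 ± 0.258, Hyou1 0.20 ± 0.09 and Canx 0.16 ± 0.002. Xbp1 was the lowest with -0.21 and 0.09, and its replicates lay on both sides of the median gene. These values are of the transcript with the spliced reading frame, whose last part holds RNA reads of both mRNA forms. Per codon, WT footprints in that part were 39.7% and 79.4% of those on the unspliced frame, and RNA reads 122.5% and 119.9%. On the transcript with the unspliced frame, a comparison added after the data were seen, Xbp1 had a TE of 0.15 and 0.25, above the median gene in both lysates and with a mean near that of Canx, so its place in the order depends on the transcript. The median of the 10 means was 0.396 and ranged up to 0.482 over the other ways of computing TE. The order is a description of these genes and was not tested against a list of other genes.

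**Figure D1:**
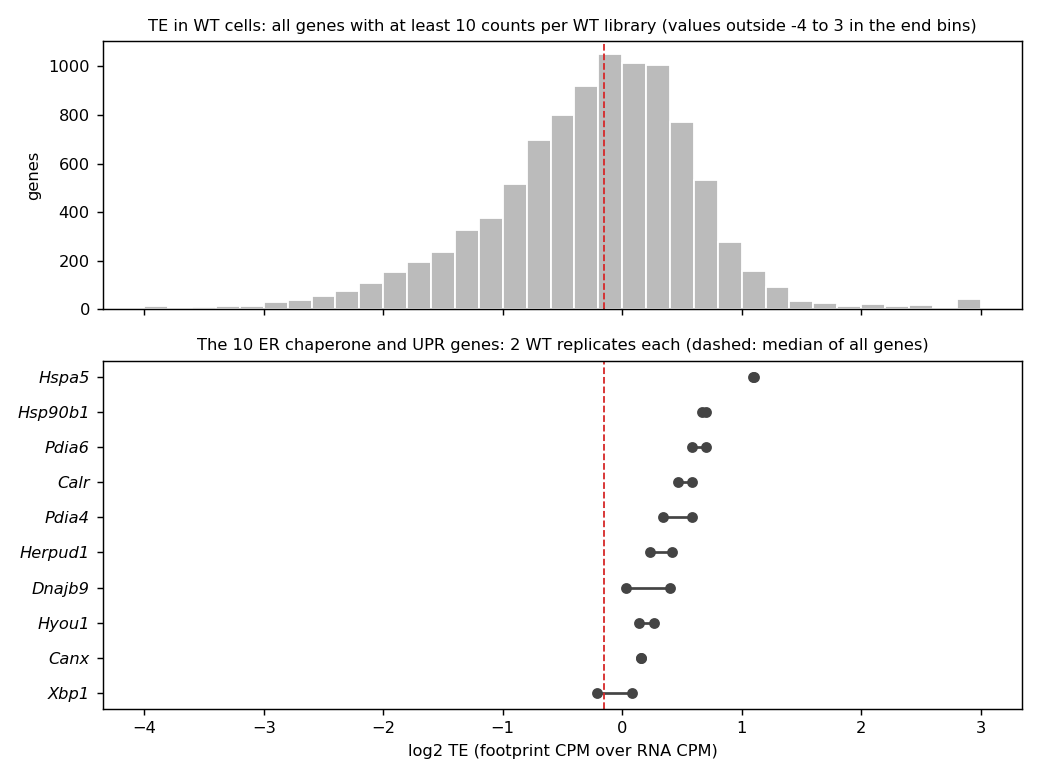
Upper panel, number of genes (y axis) by log2 TE in WT cells (x axis) over 9634 genes. Lower panel, log2 TE of the 10 genes in each of the 2 WT lysates (points, joined by a line), with the median of all genes at -0.15 as a dashed line. Hspa5 lies farthest to the right at 1.10 and the points of Xbp1 lie on both sides of the dashed line.

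Levels per 1000 counted codons, which allow genes to be compared, spanned a wide range in WT RNA-seq. Canx had 1759 ± 5.27 CPM per 1000 codons (SD, n = 2), Calr 1267 ± 15.1, Hsp90b1 1024 ± 4.63, Hspa5 789 ± 20.8 and Pdia6 629 ± 37.6. Lower levels were found for Pdia4 with 276 ± 0.658, Xbp1 with 228 ± 15.7, Hyou1 with 227 ± 11.3, Herpud1 with 79.3 ± 10.7 and Dnajb9 with 40.8 ± 6.88. Of neighbours in this order, only Xbp1 and Hyou1 had overlapping replicates. In footprints per 1000 codons the order differed at the places of Hspa5, which had 1686 ± 37.3 and overlapped with Hsp90b1 at 1644 ± 33.6, and of Hyou1 at 261 ± 3.28, which was above Xbp1 at 219 ± 16.8. The 10 genes together took 0.365% and 0.373% of RNA-seq counts in WT cells, and 0.331% to 0.398% over all lines. They took 0.531% and 0.546% of footprint counts in WT cells, from 0.493% in a KO2 library to 0.594% in a KO1 library.

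**Figure D2:**
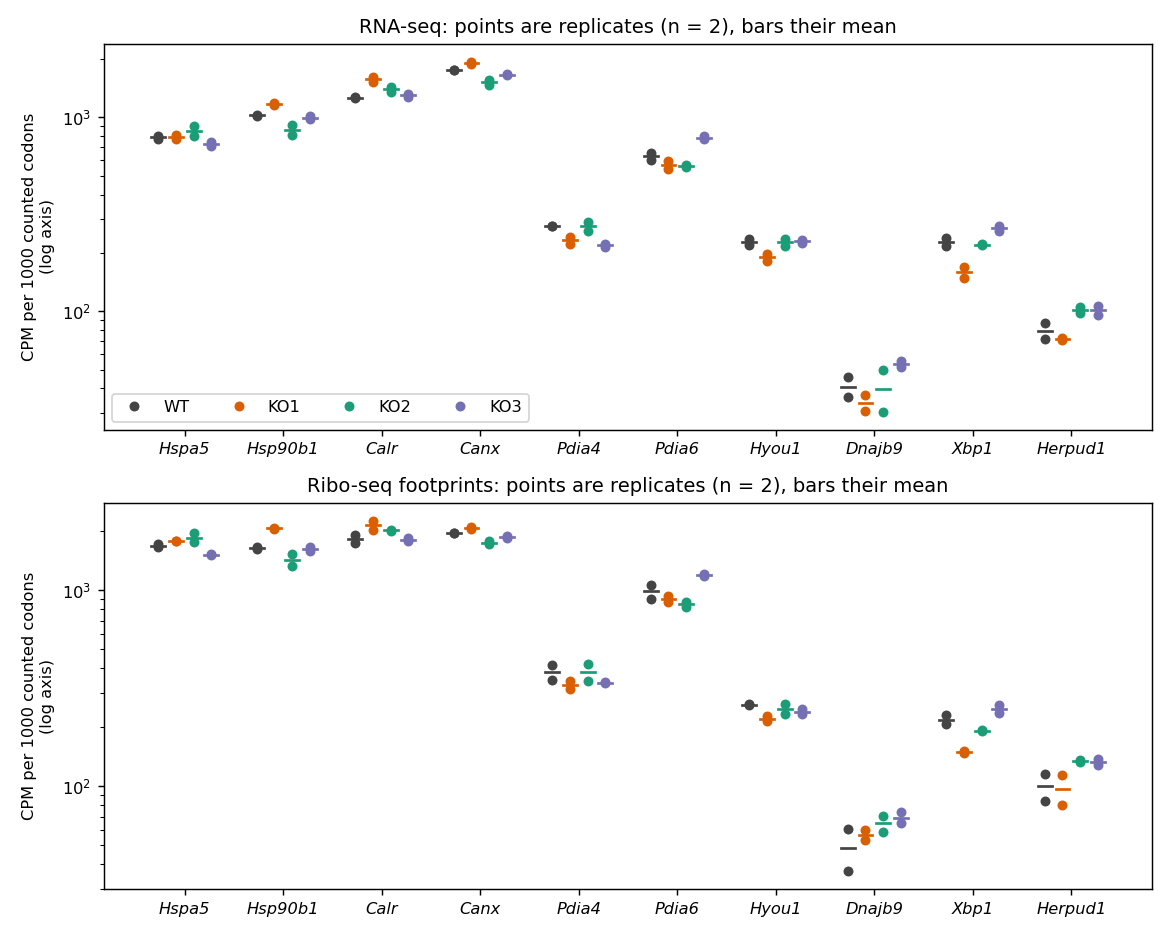
CPM per 1000 counted codons (y axis, log scale) of each gene (x axis) in RNA-seq (upper panel) and Ribo-seq (lower panel). Points are the 2 replicates of WT, KO1, KO2 and KO3 and bars are their means. Within a gene the lines lie close together against the distance between Canx at 1759 and Dnajb9 at 40.8 in WT RNA.

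The clones did not share a change of these genes in RNA. In KO1, Hsp90b1, Calr and Canx were higher than in WT cells and Pdia4, Pdia6, Hyou1 and Xbp1 were lower. In KO2, Calr and Herpud1 were higher and Hsp90b1 and Canx were lower. In KO3, Pdia6, Xbp1 and Herpud1 were higher and Hspa5 and Pdia4 were lower. The largest change was that of Xbp1 in KO1, which fell by 0.52 on the log2 scale. Tests were edgeR's quasi-likelihood tests of each clone against WT cells over all genes, with Benjamini-Hochberg adjustment, and a gene with an adjusted p under 0.05 was called. Thus 7 of 10 genes were called in KO1, where 46.7% of all 11515 genes tested were called, 4 of 10 in KO2 against a background of 20.4%, and 5 of 10 in KO3 against 45.4%. By direction, KO1 had 3 higher and 4 lower beside backgrounds of 22.1% and 24.6%, KO2 had 2 higher and 2 lower beside 11.6% and 8.84%, and KO3 had 3 higher and 2 lower beside 23.1% and 22.3%. The median change of the 10 genes was -0.143 for KO1, -0.024 for KO2 and 0.026 for KO3, beside 0.003, 0.000 and 0.001 over all genes tested. The median in KO1 rests on the WT libraries, with -0.045 without WT replicate 1 and -0.234 without WT replicate 2, and that in KO2 turned to 0.068 without KO2 replicate 2 and that in KO3 to -0.006 without WT replicate 2. The count called was lower in KO2 without WT replicate 2 and in KO3 without WT replicate 2 or KO3 replicate 2. Those fits have 1 library in a group, and fewer of all genes were called in them too. With 10 genes the shares called differ little in number from the background, and 9 of the 16 calls were kept under all 14 alternative settings. Among the 14 is a threshold of adjusted p under 0.1, under which no call can be lost. Here and below, the other settings alone could test a call. In bulk samples fewer cells that express a gene and less RNA per cell cannot be told apart.

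Footprints were called less often in number, for 4 of 10 genes in KO1 (background 26.9%), 2 of 10 in KO2 (background 11.7%) and 4 of 10 in KO3 (background 30.6%). Of these calls 2 were higher and 2 lower in KO1 (background 11.7% and 15.2%), 0 higher and 2 lower in KO2 (6.74% and 4.96%), and 2 higher and 2 lower in KO3 (14.9% and 15.7%). Of the 30 pairs of a gene and a clone, 16 were called in RNA, 10 in footprints and 9 in both, and those 9 had the same direction in both. How often the calls of all genes agree in this way was not computed, so it is not read as a trait of the 10 genes. Pdia6 in KO2 was the single pair called in footprints and not in RNA. The median footprint change of the 10 genes was -0.034 for KO1, -0.032 for KO2 and -0.032 for KO3. Its sign turned in each clone when 1 library was left out, to 0.07 in KO1 without WT replicate 1 or without KO1 replicate 1, to 0.069 in KO2 without KO2 replicate 2 and to 0.022 in KO3 without WT replicate 1. The footprint count was lower in KO1 without KO1 replicate 1, and in KO2 without either WT replicate or KO2 replicate 2. In KO3 it was lower without WT replicate 2 or either KO3 replicate. Those fits have 1 library in a group, and fewer of all genes were called in them too. Of the 10 footprint calls, that of Hsp90b1 in KO1 was kept under all 14 settings, and 9 were lost under at least 1 of them.

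**Figure D3:**
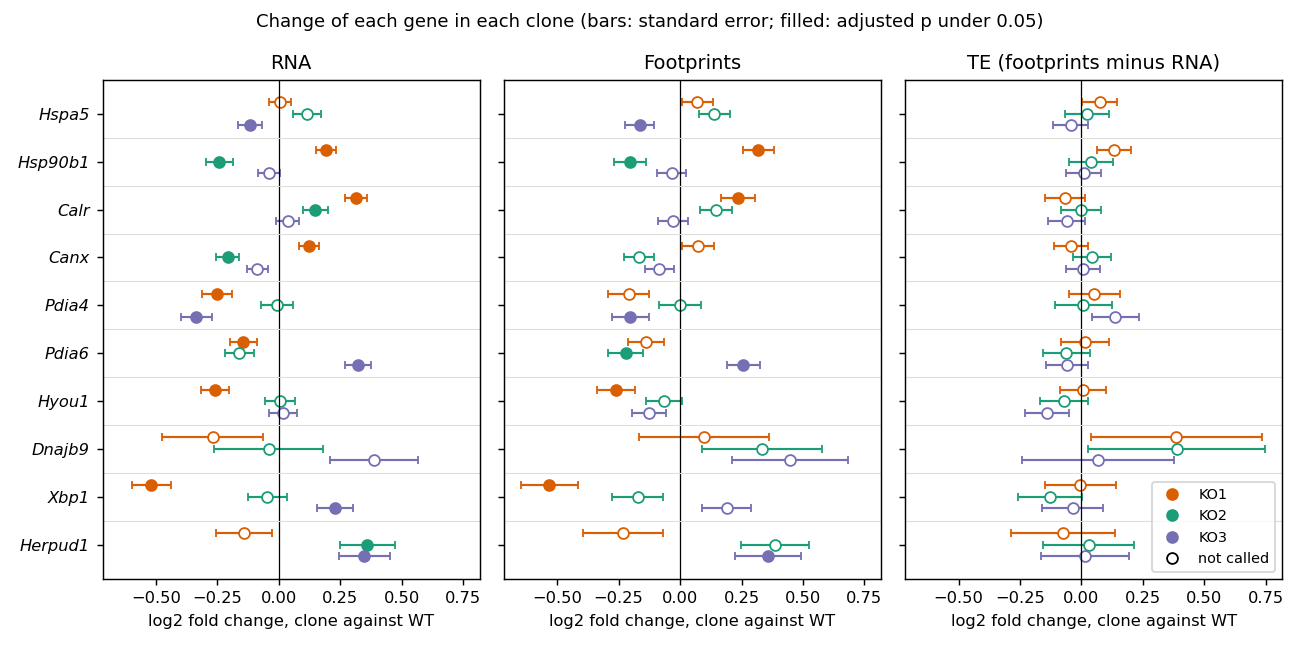
Log2 fold change of each clone against WT cells (x axis, the same scale in all panels) of the 10 genes (y axis) in RNA, footprints and TE. Points are estimates, bars are standard errors, filled points have an adjusted p under 0.05, and colours are KO1, KO2 and KO3. Filled points lie on both sides of 0 in RNA, up to 0.52 from it, and no point is filled for TE.

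The Hsp70 system of the ER lumen is formed by Hspa5 (BiP), which binds unfolded chains and holds the UPR sensors inactive, by Hyou1 (GRP170), an Hsp70-like exchange factor for BiP, and by Dnajb9 (ERdj4), a J-domain partner of BiP. Hspa5 (chr2:34771970-34777547, plus strand) had RNA levels of 519 and 500.0 CPM in WT cells, 523 and 499 for KO1, 587 and 515 for KO2 and 483 and 458 for KO3. The KO1 replicates lay around those of WT cells, KO2 replicate 1 was the highest library, and both KO3 replicates were below WT cells. Its RNA change was 0.00 in KO1 and 0.12 in KO2, neither called (adjusted p = 0.945 and 0.172), and -0.12 (SE 0.0486, adjusted p = 0.0441) in KO3. The KO3 call was close to the threshold and was lost without WT replicate 1 (0.338), WT replicate 2 (0.0927) or KO3 replicate 2 (adjusted p = 0.238), and Hspa5 was called higher in KO2 without KO2 replicate 2 (adjusted p = 0.000707). Footprints of Hspa5 were 1106 and 1072 CPM in WT cells, 1151 and 1158 for KO1, 1258 and 1139 for KO2 and 984 and 979 for KO3. Both KO3 libraries were below WT cells, and all KO1 and KO2 libraries were above them. The change was called in KO3 alone, with -0.16 (SE 0.0592, adjusted p = 0.0315), and this call was lost when any 1 of the 4 libraries was left out (adjusted p from 0.065 to 0.227).

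Hyou1 (chr9:44379490-44392369, plus strand) had RNA levels of 232 and 217 CPM in WT cells, 195 and 180.5 for KO1, 233 and 216 for KO2 and 231 and 224 for KO3. Both KO1 libraries were below every other library, and those of KO2 and KO3 overlapped with WT cells. The change in KO1 was -0.26 (SE 0.0576, adjusted p = 0.000184), while KO2 and KO3 had 0.00 and 0.02 and were not called. In footprints Hyou1 had 256 and 261 CPM in WT cells and 214 and 225 in KO1, again without overlap, while KO2 had 260.3 and 232 and KO3 had 245 and 231. The footprint change in KO1 was -0.26 (SE 0.0781, adjusted p = 0.00905), a call lost without WT replicate 1 (0.0913), WT replicate 2 (0.0855) or KO1 replicate 1 (adjusted p = 0.269).

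Dnajb9 (chr12:44205559-44210326, minus strand) was the least counted of the 10 genes, with 69 to 148 RNA-seq counts and 15 to 64 footprints in a library. RNA levels were 9.73 and 7.66 CPM in WT cells, 7.88 and 6.47 for KO1, 10.6 and 6.42 for KO2 and 11.7 and 11 for KO3, so that KO3 alone did not overlap with WT cells. Its changes of -0.27, -0.04 and 0.39 had standard errors of 0.207, 0.221 and 0.18 and were not called (adjusted p = 0.294, 0.927 and 0.0717). A change of the size estimated in KO1 was thus not detectable at this depth. Without WT replicate 1 the gene was called higher in KO3 in RNA (adjusted p = 0.0472) and in footprints (adjusted p = 0.0397). Footprints were 12.8 and 7.85 CPM in WT cells, 11.3 and 12.8 for KO1, 12.5 and 15.1 for KO2 and 15.8 and 13.8 for KO3, with both KO3 libraries above WT cells.

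Hsp90b1 (GRP94), the Hsp90 of the ER lumen, was higher in KO1 and lower in KO2. The gene (chr10:86690209-86705509, minus strand) had RNA levels of 815 and 809.7 CPM in WT cells, 943 and 914 for KO1, 728 and 644 for KO2 and 803 and 779 for KO3. All KO1 libraries lay above and all libraries of KO2 and KO3 below those of WT cells, and those of KO3 were the closest to WT cells. The RNA change was 0.19 (SE 0.0413, adjusted p = 0.000106) in KO1, -0.24 (SE 0.054, adjusted p = 0.00214) in KO2 and -0.04 in KO3, which was not called. Both calls were kept under all 14 settings. Footprints followed with 1323 and 1285 CPM in WT cells, 1648 and 1631 for KO1, 1208 and 1058 for KO2 and 1259 and 1312 for KO3. Their change was 0.32 (SE 0.0634, adjusted p = 9.19e-05) in KO1 and -0.20 (SE 0.0651, adjusted p = 0.0391) in KO2. The KO2 call in footprints was lost without WT replicate 1 (0.247), WT replicate 2 (0.0999) or KO2 replicate 2 (adjusted p = 0.412).

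The lectin chaperones calreticulin (Calr, soluble in the lumen) and calnexin (Canx, in the ER membrane) hold glycoproteins while they fold. They moved together in KO1 and apart in KO2. Calr (chr8:84841850-84846934, minus strand) had RNA levels of 520.0 and 511 CPM in WT cells, 661 and 621 for KO1, 587 and 554 for KO2 and 537 and 521 for KO3. Its 8 libraries were ordered with KO1 on top, then KO2, then KO3 and then WT cells, without overlap between lines. The RNA change was 0.31 (SE 0.045, adjusted p = 5.77e-08) in KO1, 0.15 (SE 0.0511, adjusted p = 0.0431) in KO2 and 0.04 (adjusted p = 0.578) in KO3. The KO1 call was kept under all 14 settings, and the KO2 call was lost under 6 of them, among them without WT replicate 1 (0.194), WT replicate 2 (0.309) or KO2 replicate 1 (adjusted p = 0.131). In footprints Calr had 777 and 705 CPM in WT cells, 920.0 and 829 for KO1, 828 and 816 for KO2 and 748 and 721 for KO3. The footprint change was called in KO1 with 0.24 (SE 0.0674, adjusted p = 0.00616), and the call was lost without WT replicate 2 (0.178) or KO1 replicate 1 (adjusted p = 0.267).

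Canx (chr11:50293961-50325673, minus strand) had RNA levels of 1022 and 1026 CPM in WT cells, 1099.9 and 1131 for KO1, 912 and 857 for KO2 and 959 and 969.5 for KO3. No clone overlapped with WT cells, with KO1 above and KO2 and KO3 below. The change was 0.12 (SE 0.0399, adjusted p = 0.00937) in KO1, -0.21 (SE 0.0474, adjusted p = 0.00251) in KO2 and -0.09 (adjusted p = 0.0872) in KO3. The KO1 call was lost without WT replicate 1 (adjusted p = 0.145) or WT replicate 2 (adjusted p = 0.126), and the KO2 call was kept under all 14 settings. Footprints of Canx were 1141 and 1143 CPM in WT cells, 1223 and 1195 for KO1, 1040.4 and 996 for KO2 and 1077 and 1096 for KO3. They lay on the same side of WT cells as the RNA in each clone, with changes of 0.07, -0.17 and -0.08, and none was called (adjusted p = 0.444, 0.0736 and 0.297).

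Pdia4 (ERp72) and Pdia6 (P5) are protein disulfide isomerases that work with BiP. In KO3 the former was lower and the latter higher. Pdia4 (chr6:47796141-47813430, minus strand) had RNA levels of 175 and 174 CPM in WT cells, 152 and 141 for KO1, 183 and 164 for KO2 and 136 and 141 for KO3. KO1 and KO3 were below WT cells in every library, and the KO2 replicates lay on both sides. The change was -0.25 (SE 0.0607, adjusted p = 0.000526) in KO1 and -0.34 (SE 0.0625, adjusted p = 4.75e-06) in KO3, both kept under all 14 settings, and -0.01 in KO2. Pdia4 footprints were 262 and 221 CPM in WT cells, 219 and 197 for KO1, 266 and 218 for KO2 and 212 and 214 for KO3, and the 2 WT libraries were far apart. The footprint change was called in KO3 with -0.20 (SE 0.0751, adjusted p = 0.035) and not in KO1 with -0.21 (adjusted p = 0.0564). Without WT replicate 1 the KO3 value was -0.06 (adjusted p = 0.732), the call was also lost without KO3 replicate 1 (0.113) or KO3 replicate 2 (adjusted p = 0.0623), and without WT replicate 2 the KO1 change was called (adjusted p = 0.0177).

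Pdia6 (chr12:17266545-17284770, plus strand) had RNA levels of 286 and 263 CPM in WT cells, 259.9 and 236 for KO1, 248 and 242 for KO2 and 349 and 337 for KO3. Both KO3 libraries were above all others and both KO1 and KO2 libraries were below WT cells. The rise in KO3 was 0.32 (SE 0.0539, adjusted p = 4.85e-07) and was kept under all 14 settings. In KO1 the change was -0.14 (SE 0.0554, adjusted p = 0.0279), lost without WT replicate 1 (0.4) or KO1 replicate 2 (adjusted p = 0.325). In KO2 it was -0.16 (adjusted p = 0.0553) and was called without KO2 replicate 1 (adjusted p = 0.0169). Footprints were 465 and 395 CPM in WT cells, 406 and 378 for KO1, 382 and 358 for KO2 and 528 and 515 for KO3, with KO3 above and KO2 below WT cells in both libraries. They were called higher in KO3 with 0.26 (SE 0.0656, adjusted p = 0.00211) and lower in KO2 with -0.22 (SE 0.072, adjusted p = 0.0406). The KO3 call was lost without WT replicate 2 (adjusted p = 0.146), the KO2 call without WT replicate 1 (0.674) or KO2 replicate 2 (adjusted p = 0.149), and KO1 was called lower without WT replicate 2 (adjusted p = 0.0472).

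Herpud1, a membrane protein of the complex that sends misfolded proteins from the ER to the proteasome, was higher in KO2 and KO3. The gene (chr8:94386438-94395377, plus strand) had RNA levels of 33.2 and 27.4 CPM in WT cells, 27.7 and 27.1 for KO1, 40.3 and 37.3 for KO2 and 36.5 and 40.6 for KO3. All libraries of KO2 and KO3 were above both WT libraries, of which replicate 1 was clearly the higher, and the KO1 libraries overlapped with WT cells. The RNA change was 0.36 (SE 0.112, adjusted p = 0.023) in KO2 and 0.35 (SE 0.105, adjusted p = 0.00446) in KO3, and -0.14 in KO1 (adjusted p = 0.317). Without WT replicate 2 the changes were 0.23 (adjusted p = 0.341) and 0.21 (adjusted p = 0.217), and the calls were also lost without KO2 replicate 1 (0.0607) and KO3 replicate 2 (adjusted p = 0.0737). In footprints Herpud1 had 44.4 and 32.2 CPM in WT cells, 30.8 and 43.5 for KO1, 50.6 and 52.3 for KO2 and 49.0 and 52.9 for KO3, with KO2 and KO3 above WT cells. The footprint change was called in KO3 with 0.36 (SE 0.135, adjusted p = 0.0392) and not in KO2 with 0.39 (adjusted p = 0.0656). It was lost in KO3 without WT replicate 2 (0.408) or KO3 replicate 2 (adjusted p = 0.141) and appeared in KO2 without WT replicate 1 (adjusted p = 0.00948).

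Xbp1, the transcription factor of the IRE1 branch, had the largest change of the 10 genes and differed in direction between KO1 and KO3. The gene (chr11:5520659-5525893, plus strand) had RNA levels of 86.7 and 78.6 CPM in WT cells, 61.3 and 53.9 for KO1, 80.3 and 79.3 for KO2 and 94.3 and 99.6 for KO3. KO1 was below and KO3 above every other library, and both KO2 libraries lay between the WT replicates. The RNA change was -0.52 (SE 0.0807, adjusted p = 3.43e-07) in KO1, kept under all 14 settings, -0.05 (adjusted p = 0.743) in KO2 and 0.23 (SE 0.0743, adjusted p = 0.00805) in KO3. The KO3 call was lost without WT replicate 2 (0.22) or KO3 replicate 2 (adjusted p = 0.07). Footprints were 74.8 and 83.4 CPM in WT cells, 55.1 and 53.8 for KO1, 70.2 and 69.1 for KO2 and 94.3 and 85.8 for KO3, none overlapping with WT cells. The footprint change was called in KO1 with -0.53 (SE 0.116, adjusted p = 0.000316), and the values of -0.17 in KO2 and 0.19 in KO3 were not called (adjusted p = 0.317 and 0.149). DESeq2 did not call the footprints of Xbp1 in KO1 (adjusted p = 0.088).

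Of the 6 genes with a motif match shown above, Hsp90b1, Calr and Canx were higher and Pdia6 lower in KO1 RNA, while Hspa5 and Herpud1 were not called. In KO2, Calr and Herpud1 were higher and Hsp90b1 and Canx lower, and Hspa5 and Pdia6 were not called. In KO3, Pdia6 and Herpud1 were higher and Hspa5 lower, and Hsp90b1, Calr and Canx were not called. The lower call of Pdia6 in KO1 was lost under 5 and that of Hspa5 in KO3 under 6 of the 14 settings, leaving out 1 library among them.

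TE did not differ detectably between any clone and WT cells for any of the 10 genes, each on the transcript that stood for it. By the edgeR interaction test of line and assay, 0 of 10 genes were called in KO1, KO2 and KO3, where 0.0942%, 0.0173% and 0.104% of all genes tested were called. Of the 30 comparisons 0 had an unadjusted p under 0.05, DESeq2 also called 0, and the smallest unadjusted p was 0.0612, for Hsp90b1 in KO1 (adjusted p = 0.712). Hsp90b1 had TE values of 0.70 and 0.67 in WT cells and 0.81 and 0.83 in KO1, with no overlap, and a fitted TE change of 0.13 (SE 0.0689). For Hspa5 the TE values were 1.09 and 1.10 in WT cells, 1.14 and 1.21 for KO1, 1.10 and 1.15 for KO2 and 1.03 and 1.09 for KO3, and the fitted changes were 0.07, 0.02 and -0.04. Apart from Dnajb9 and Herpud1, whose footprint counts were low, the estimated TE changes were at most 0.14 in size and their 95% intervals reached from -0.39 to 0.33. With Dnajb9 and Herpud1 the intervals reached from -0.55 to 1.12, so for these genes a wider range of TE changes is not excluded at this depth. For Xbp1 the test used the transcript with the spliced frame. On that with the unspliced frame its TE was 0.15 and 0.25 in WT cells and 0.11 and -0.04 in KO1. It was -0.05 and -0.01 in KO2 and 0.26 and 0.14 in KO3. KO1 and KO2 were thus below WT cells without overlap, which was not tested, and the value of -0.04 rests on 44 footprints. The RNA and footprint libraries of a replicate came from the same lysate, and a fit with the lysate as a block also called 0 of the 10 genes in each clone. Over the 450 values of the 30 comparisons under the alternative settings, 0 had an adjusted p under 0.05. They include the setting of adjusted p under 0.1, which repeats the main fit.

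The clones differed from each other in the RNA of all 10 genes. The edgeR F test of equal change in the 3 clones was called for 10 of 10 genes in RNA, where 74% of all genes tested were called, for 7 of 10 in footprints against a background of 59.5%, and for 0 of 10 in TE against 1.03%. The RNA count fell to 9 without KO1 replicate 2 or KO3 replicate 1, and the footprint count was 6 without KO1 replicate 1 and 9 without KO2 replicate 2. In RNA of all genes tested 50.7% were called between KO1 and KO2, 60.1% between KO1 and KO3 and 50.9% between KO2 and KO3. For Xbp1, RNA was lower in KO1 than in KO3 by -0.75 on the log2 scale (SE 0.0815, adjusted p = 5.42e-10), and KO1 was also below KO2 and KO2 below KO3. For Pdia6, KO1 and KO2 did not differ beyond their error (0.02, SE 0.0608), and both were below KO3, by -0.47 and -0.49. For Hsp90b1, KO1 was above KO2 by 0.44 (SE 0.0523, adjusted p = 7.37e-09) and above KO3 by 0.23 (SE 0.052), and KO2 was below KO3 by -0.21. For Herpud1, KO1 was below KO2 and KO3 by -0.50 and -0.49, and KO2 and KO3 had a difference of 0.01 (SE 0.105, adjusted p = 0.955). Thus the genes did not sort the clones in a single order. Hsp90b1, Canx, Pdia6 and Xbp1 were called in opposite directions in the RNA of different clones. The share of all genes with such opposite calls was not computed. Of these calls, those of Pdia6 and Canx in KO1 and of Xbp1 in KO3 were lost under 5, 2 and 3 of the 14 settings.

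The 2 reading frames of Xbp1 were compared because the spliced form is the usual readout of IRE1. The transcript that stood for the gene was the one annotated with the spliced frame (ENSMUST00000239150.1, 362 counted codons), and the unspliced frame is annotated on ENSMUST00000063084.15 (258 counted codons). The RefSeq proteins of the 2 frames have 371 and 267 residues, and the spliced frame ends 338 bases beyond the unspliced stop codon. The RNA count on the spliced frame was 149.4% and 148.3% of that on the unspliced frame in WT cells, 148.4% and 139.3% for KO1, 146.4% and 147.9% for KO2 and 148.3% and 149.6% for KO3. These values overlapped between KO1, KO3 and WT cells, and KO2 was slightly below WT cells. Footprints on the spliced frame were 116% and 132% of those on the unspliced frame in WT cells, 123.6% and 143.2% for KO1, 132.7% and 129.6% for KO2 and 123.5% and 116.6% for KO3, so that every clone overlapped with WT cells. The KO1 value of 143.2% rests on 63 and 44 footprints. RNA reads beyond the unspliced stop come from both mRNA forms, so the RNA ratio is no measure of splicing, and reads before it are counted on both transcripts. The last codons of the unspliced frame also fall in the counted part of the spliced one. The share of spliced Xbp1 mRNA cannot be read from these counts.

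**Figure D4:**
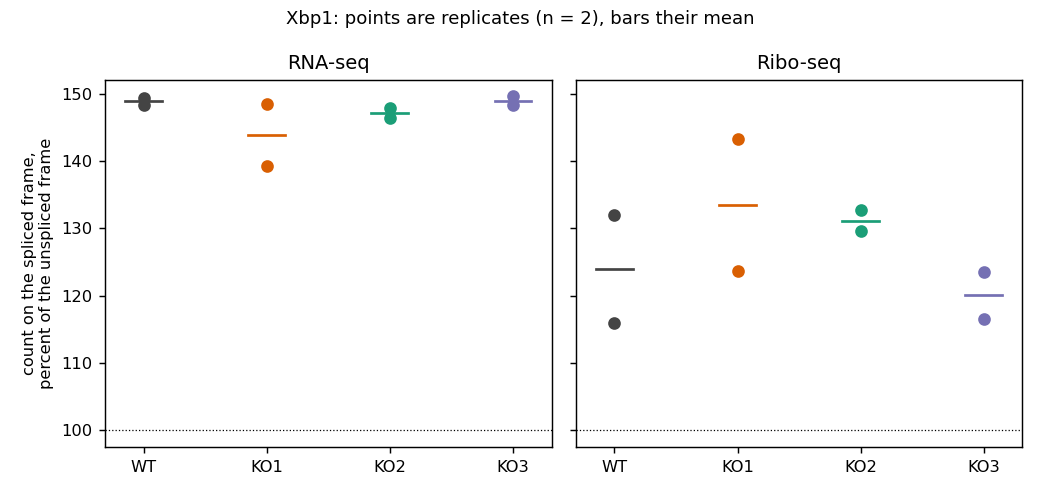
Count on the spliced reading frame of Xbp1 as a percentage of that on the unspliced frame (y axis, which starts above 0) in each line (x axis), for RNA-seq (left) and Ribo-seq (right). Points are the 2 replicates, short horizontal lines their means, and the dotted line marks equal counts. RNA values lie between 139.3% and 149.6% and footprint values between 116% and 143.2%, with overlap of the clones and WT cells in footprints.

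Genes around the 10 in the same pathways were followed through lists of ER proteins and stress genes. Their values are log2 RNA changes from WT cells unless given as CPM. Over all genes tested, 22.1% were called higher and 24.6% lower in KO1 RNA (46.7% in all), 11.6% and 8.84% in KO2 (20.4%), and 23.1% and 22.3% in KO3 (45.4%). For the other ER lumenal chaperones and co-chaperones, 4 of 20 tested genes were higher and 7 lower in KO1 RNA, 2 higher and 2 lower in KO2, and 6 higher and 5 lower in KO3. These are 55%, 20% and 55% of the list, near the shares over all genes. Sec63, a J-domain protein of the translocation channel, was called in all 3 clones, with -0.42 for KO1, -0.31 for KO2 and 0.19 for KO3. For the disulfide and prolyl isomerases, 1 of 22 genes was higher and 7 lower in KO1, 2 higher and 3 lower in KO2, and 5 higher and 4 lower in KO3, or 36.4%, 22.7% and 40.9% of the list. Pdia5, a disulfide isomerase, had 47.7 and 49.0 CPM in WT cells, 28.0 and 26.2 for KO1, 43.2 and 39.0 for KO2 and 88.5 and 96.8 for KO3. KO1 was thus below and KO3 above WT cells without overlap, with -0.84 and 0.94 (adjusted p = 5.58e-10 and 2.96e-17). In the glycoprotein folding cycle, 4 of 8 genes were higher and 1 lower in KO1, 1 higher and 0 lower in KO2, and 3 higher and 1 lower in KO3, or 62.5%, 12.5% and 50% of a short list. The KO1 count of 5 in this list fell to 1 with DESeq2, where the count over all genes fell from 5376 to 3644. It was also lower when any 1 library was left out. In KO2 several counts of these lists and of the degradation genes below were lower without 1 of the WT replicates. Such fits have 1 library in a group. The number called over all genes tested was lower in these fits too, so the falls are not particular to the lists. Mlec, a lectin for newly glycosylated proteins, had 0.17 in KO1, -0.03 in KO2 and 0.32 in KO3. It was called in KO1 (adjusted p = 0.04) and KO3 (adjusted p = 7.7e-06), and its KO1 replicates overlapped with WT cells. In ER-associated degradation, 8 of 29 genes were higher and 7 lower in KO1, 2 higher and 2 lower in KO2, and 4 higher and 8 lower in KO3, or 51.7%, 13.8% and 41.4% of the list. Ubxn4, which recruits the p97 ATPase, had 0.31, 0.28 and -0.22 in KO1, KO2 and KO3, and Edem1, which directs glycoproteins to degradation, had -0.23, 0.23 and -0.24, all called.

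Among the UPR sensors and transducers, 4 of 12 genes were higher and 5 lower in KO1 RNA, 3 higher and 3 lower in KO2, and 4 higher and 3 lower in KO3. These are 75%, 50% and 58.3% of the list, where 46.7%, 20.4% and 45.4% of all genes were called. The KO2 count of 6 was lower without WT replicate 1, a fit with 1 WT library in which fewer of all genes were called too. Rtcb, the ligase that joins the cut ends of Xbp1 mRNA, had 0.38 for KO1, -0.22 for KO2 and 0.27 for KO3, and Creb3, an ER-bound transcription factor, had 0.44, 0.30 and -0.31, all called. The genes of the 3 sensors are given too, although they were chosen after their values were seen. Ern1, which encodes IRE1, had -0.35 in KO1 (adjusted p = 4.14e-05), -0.34 in KO2 (adjusted p = 0.00166) and 0.71 in KO3 (adjusted p = 8.32e-16). Eif2ak3, which encodes PERK, had the opposite signs, with 0.38, 0.36 and -0.38, all called. Atf6 was lower in KO1 with -0.43 (adjusted p = 8.35e-06) and had 0.17 and -0.18 in KO2 and KO3, which were not called.

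The PERK-ATF4-CHOP branch, whose genes also respond to amino acid shortage, was the list with the largest number of calls in 1 direction. In KO1, 0 of 17 tested genes were higher and 13 lower, with a median of -0.549, while 4 were higher and 3 lower in KO2 (median -0.043) and 8 higher and 1 lower in KO3 (median 0.11). Of all genes tested, 22.1% were called higher and 24.6% lower in KO1, 11.6% higher and 8.84% lower in KO2, and 23.1% higher and 22.3% lower in KO3, and their medians were 0.003, 0.000 and 0.001. Under a filter of 10 counts in every library of both assays the counts called fell to 6 in KO1 and 4 in KO3. Genes below the filter were left out of that fit and stood as not called, so the fall is not only one of lost calls. Nupr1, a small stress-induced chromatin protein, had 3.91 and 4.25 CPM in WT cells, 1.73 and 1.5 for KO1, 12.0 and 10.2 for KO2 and 1.03 and 0.983 for KO3, so that KO2 was above and KO1 and KO3 were below WT cells. Sesn2, a leucine sensor that restrains mTORC1, had 32.3 and 35.5 CPM in WT cells, 22.5 and 23.2 for KO1, 24.4 and 20.5 for KO2 and 51.9 and 54.5 for KO3, below WT cells in KO1 and KO2 and above them in KO3. Named after their values were seen, Atf4, Ddit3 (CHOP) and Trib3, a target of both, had -0.95, -0.53 and -2.83 in KO1 and 0.22, 0.58 and 1.33 in KO3, all called. In KO2 they had 0.28, -0.05 and 0.03, of which the value of Atf4 was called. KO1 had the lowest and KO3 the highest summed level of hepatocyte markers, although 3 of them were called higher and 3 lower in KO3. The part of the difference in summed level in these counts was not tested.

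Chaperones outside the ER served as a comparison. Of 19 cytosolic chaperones tested, 5 were higher and 7 lower in KO1, 5 higher and 0 lower in KO2, and 6 higher and 6 lower in KO3, and of 10 mitochondrial ones 2 and 2, 3 and 1, and 2 and 3. These are 63.2%, 26.3% and 63.2% of the cytosolic and 40%, 40% and 50% of the mitochondrial list, beside 46.7%, 20.4% and 45.4% of all genes in KO1, KO2 and KO3. Hsph1, an Hsp110 of the cytosol, had 0.39, 0.24 and -0.23 in KO1, KO2 and KO3, and St13, an Hsp70 cofactor, -0.45, 0.26 and 0.15. Lonp1, a mitochondrial protease, had 0.57, 0.20 and -0.15, and Hspe1, the mitochondrial Hsp10, 0.39, 0.38 and -0.40. All these were called, and calls of both directions also occurred in these lists outside the ER. The cytosolic and mitochondrial counts were lower in KO2 without either WT replicate and in KO3 without WT replicate 1. Those fits have 1 WT library, and fewer of all genes were called in them too. Of the hepatocyte markers tested, 0 of 7 were higher and 6 lower in KO1, 0 higher and 4 lower in KO2, and 3 higher and 3 lower in KO3, or 85.7%, 57.1% and 85.7%, among them Fgb with -1.40, -2.43 and -0.72 and Trf with -1.75, -0.28 and -0.62. Of the markers of other cell types, 1 of 5 was higher and 2 lower in KO1, 0 and 2 of 5 in KO2, and 2 and 2 of 6 in KO3, among them Pecam1, which was at 0.0793 to 2.27 CPM and had -1.26, -1.49 and -2.32. In TE, Trf was the single gene of all these lists that was called in any clone, with a log2 TE change of 0.56 in KO1 (adjusted p = 0.00326).

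**Figure D5:**
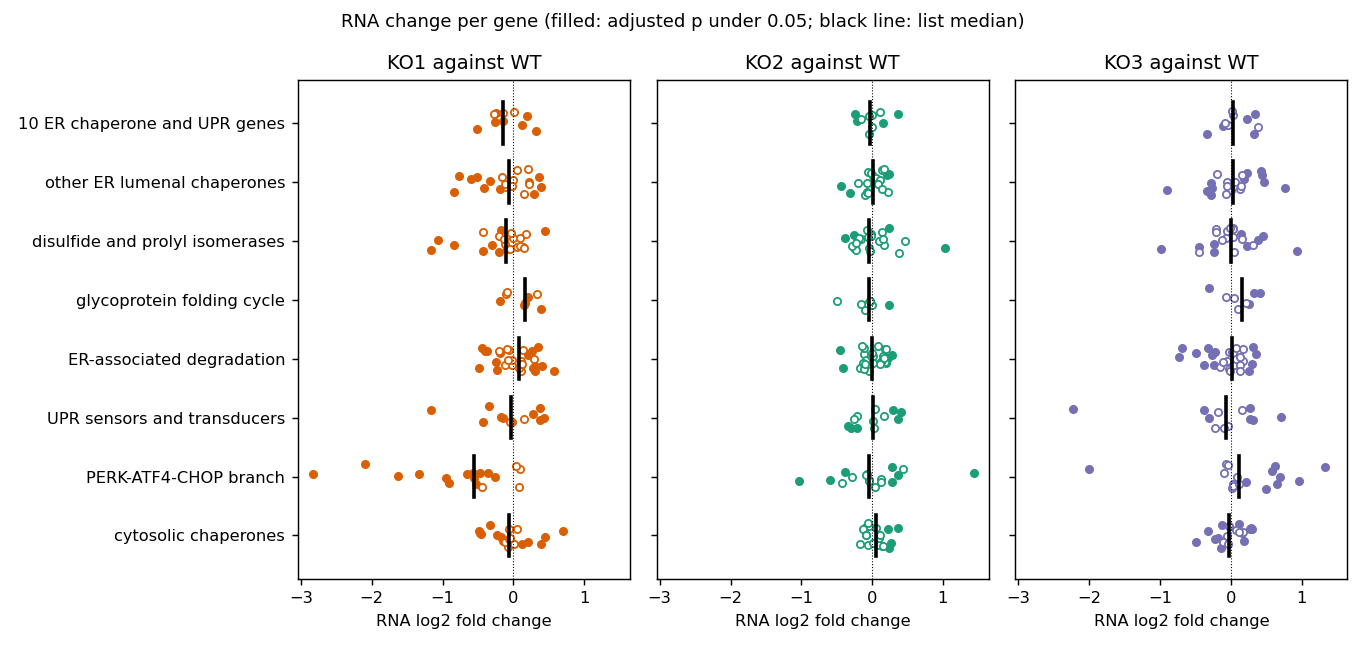
RNA log2 fold change against WT cells (x axis, the same scale in all panels) of each tested gene in 8 gene lists (y axis) in KO1, KO2 and KO3. Points are genes, spread vertically at random, filled where the adjusted p is under 0.05, and black lines are list medians. The PERK-ATF4-CHOP branch lies to the left of 0 in KO1, with a median of -0.549, and the 10 genes described here lie within 0.52 of 0.

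Across the 8 RNA-seq libraries, log2 CPM of Hsp90b1 and Canx had a Pearson's r of 0.966, that of Hyou1 and Xbp1 0.91, that of Canx and Herpud1 -0.825 and that of Calr and Xbp1 -0.815. The 8 points are 2 replicates of each of 4 lines, so that r mostly follows the lines. Hspa5 had r of 0.404 with Calr, -0.189 with Hsp90b1 and -0.628 with Pdia6, and an ERSE match is present in all 4 genes. Among 8717 genes with a mean of 10 CPM or more, those with the highest r to Hspa5 were Tyw5 and Heatr1 (0.941), Bet1 and Dock8 (0.939) and Nol9 (0.937), and those with the highest r to the mean of the 10 genes were Rpe and Thap7 (0.954), Pkn3 (0.951), Rnf139 (0.933) and Dhrs1 (0.931). With 8 libraries and 8717 genes these r values are a description of the libraries and carry no test.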

How the data were processed

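The authors trimmed reads with fastp 0.21.0, aligned them to mm10 with STAR 2.7.0a and, for each transcript of GENCODE vM23, deposited whole-number counts of ribosomal A sites (Ribo-seq) or reads (RNA-seq) over the coding sequence without its first and last 5 codons. Reads shared by transcripts of a gene count on every one of them, so 1 transcript per gene was kept, which gave 22392 genes of 67139 transcripts. Libraries were scaled by TMM within each assay, low genes were removed with filterByExpr, and edgeR 4.0.16 (quasi-likelihood, R 4.3.3) compared each clone with WT cells in RNA and in footprints over 4 libraries. TE was the interaction of line and assay over 8 libraries, and an F test compared the 3 clones. The adjusted p is that of Benjamini and Hochberg over all genes tested, and called means under 0.05. The 95% intervals are those of the fit. Scripts were tested on simulated data. DESeq2 1.42.0, other scalings and filters, thinning, blocks and leaving out each library were alternatives. So was a threshold of 0.1 on the adjusted p of the main fit, under which no call can be lost. The genes, lists and tests were chosen with earlier results of these data known. Genes outside the 10 were named, at most 2 for each list, if called in all 3 clones in RNA with the largest absolute mean change, or, where none was, for the smallest adjusted p, and if called in TE. The genes of the 3 UPR sensors and Atf4, Ddit3 and Trib3 were named outside this rule, after their values were seen. Gene positions are those of GENCODE vM21 and sequences those of RefSeq, both on GRCm38. Lysates pair RNA-seq with Ribo-seq by the extraction protocol.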

Additional observations from a re-analysis of the deposited data

Results flagged for a closer look

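The change from WT cells differed between KO1, KO2 and KO3 by the edgeR F test (adjusted over all genes) in the RNA of all 10 genes and the footprints of 7, beside backgrounds of 74% and 59.5% of all genes tested. In RNA the adjusted p was 0.00235 for Hspa5, 1.62e-08 for Hsp90b1, 5.8e-05 for Calr, 4.59e-07 for Canx and 0.000121 for Pdia4. It was 1.4e-09 for Pdia6, 0.000224 for Hyou1, 0.0129 for Dnajb9, 2.05e-09 for Xbp1 and 0.000124 for Herpud1. In footprints the adjusted p was 0.000234 for Hspa5, 8.46e-09 for Hsp90b1, 0.00254 for Calr, 0.00205 for Canx, 9.41e-08 for Pdia6, 1.2e-06 for Xbp1 and 0.000577 for Herpud1. KO1 and KO2 were made with the same guides, and 7 of 10 genes were called between them in RNA, where 50.7% of all genes tested were. These were Hsp90b1 (0.44), Canx (0.33), Calr (0.17), Pdia4 (-0.24), Hyou1 (-0.26), Xbp1 (-0.47) and Herpud1 (-0.50), given as KO1 minus KO2 on the log2 scale. The summed hepatocyte markers also differed between the clones, and their part in these differences was not tested.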

How the results depend on the processing

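The counts of the 10 genes called in RNA were 7, 4 and 5 in KO1, KO2 and KO3, and leaving out 1 library gave 5 to 7, 2 to 5 and 2 to 5. In footprints they were 4, 2 and 4, and leaving out 1 library gave 2 to 4, 0 to 2 and 1 to 3. DESeq2 called 2 and 2 in RNA of KO2 and KO3, and 1, 0 and 1 in footprints. In footprints of KO2, 1 gene was called with at least 10 counts in every library, and 4 with an adjusted p under 0.1. In footprints of KO3, 2 were called with all 4 lines in 1 fit and 1 after thinning. A fit with the replicate number as a block called 7, 5 and 5 genes in RNA, 6, 4 and 4 in footprints and 0 in TE. Replicates of the same number in WT and a clone had correlations of 0.084 to 0.235 in RNA and 0.069 to 0.105 in footprints, beside 0.08 to 0.183 for RNA-seq and Ribo-seq libraries of 1 lysate. Not every value was above 0.1 and the labels name no shared batch, so the numbers were not used to pair the lines, although these values do not settle whether they do. Over all genes DESeq2 called 3644, 1404 and 3620 in RNA, 859, 324 and 1232 in footprints and 19, 2 and 7 in TE, and the lysate block called 83, 4 and 13 in TE.

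Leaving out 1 library turned the sign of 29 of the 90 changes, of which 0 were called. Those that moved by more than their standard error were these. RNA of KO2 ranged from -0.0883 to 0.0733 for Pdia4 and from -0.433 to 0.2906 for Dnajb9. Footprints of KO1 ranged from -0.4069 to 0.1414 for Herpud1. Those of KO2 ranged from -0.1619 to 0.1395 for Pdia4 and from -0.1596 to 0.0111 for Hyou1, and those of KO3 from -0.0905 to 0.0523 for Calr. TE of KO1 ranged from -0.0585 to 0.1859 for Pdia4 and from -0.2342 to 0.301 for Herpud1, that of KO2 from -0.0761 to 0.9153 for Dnajb9 and from -0.2822 to 0.0109 for Xbp1, and that of KO3 from -0.1879 to 0.1046 for Xbp1. Calr RNA of KO3 turned with total counts (-0.0152). Thinning turned footprints of Herpud1 in KO1 (0.1064) and of Calr in KO3 (0.0558), and TE of Herpud1 in KO1 (0.2435), Calr in KO2 (0.088) and Hspa5 in KO3 (0.0313). The cause was not tested. The limits are 2 replicates of 1 clone each, the smallest Ribo-seq library (KO1 replicate 2) and low counts of Dnajb9 and Herpud1.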
